A study of Homo sapiens with 18 samples.

Results

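The genes described here are 10 genes of the YAP/TAZ pathway, chosen by symbol from the 58051 gene identifiers in the count files: CCN1, CCN2, ANKRD1, AMOTL2, LATS2, AJUBA, AXL, YAP1, WWTR1 and TEAD1. The first 7 are known targets of YAP and TAZ, whereas YAP1, WWTR1 and TEAD1 encode the regulators themselves, so the set holds more than targets. All 10 were found, and all 10 were among the 14186 genes with enough counts to be tested. Gene-level counts from mRNA sequencing of hTERT RPE-1, a telomerase-immortalised human retinal pigment epithelial cell line, make up the data. All groups were starved in 0.1% serum for 48 h after growth in 10% serum, and the labels place every sample in G0/G1. One arm received the topoisomerase II poison etoposide (50 µM for 30 min). The other had no etoposide and is called DMSO in the sample titles. Triptolide (10 µM), which blocks transcription initiation through TFIIH, was then used, and RNA was taken at time points 0, 20 and 40. Their unit, and whether triptolide was already present at 0, are not stated in the labels, and no arm without triptolide is among the 6 groups, so time and triptolide cannot be told apart. Each group (DMSO or etoposide, at 0, 20 and 40) has 3 replicates described as independent, giving 18 libraries. The design text asks how etoposide bears on RNA stability and gene expression.

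In the Hippo pathway, the kinases MST1 and MST2 activate LATS1 and LATS2, which phosphorylate the coactivators YAP (gene YAP1) and TAZ (gene WWTR1) and keep them out of the nucleus. In the nucleus YAP and TAZ act through TEAD proteins, which bind DNA at a short element containing GGAATG. The pathway is set by cell contact, the actin cytoskeleton and serum factors, and CCN1, CCN2 and ANKRD1 are its most widely used target readouts in epithelial cells.

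Sequence around the start sites was taken from RefSeq (GRCh38.p14), whose table matched 8 of the 10 genes, with no entry for CCN1 or TEAD1. The letters GGAATG, searched on both strands (CATTCC on the other), occurred in the 250 bases upstream of 11.9% of 35116 promoters in that table. At least 3 copies occurred in 29 promoters (0.0826%), of which the promoter of CCN2 is one. The upstream sequences of CCN2 (chr6:131951373-131951622, minus strand) and ANKRD1 (chr10:90921088-90921337, minus strand) are shown because, of the 8 matched genes, these are the ones with more than 1 copy and are among those whose RNA is followed most closely below. Capitals mark GGAATG.
CCN2: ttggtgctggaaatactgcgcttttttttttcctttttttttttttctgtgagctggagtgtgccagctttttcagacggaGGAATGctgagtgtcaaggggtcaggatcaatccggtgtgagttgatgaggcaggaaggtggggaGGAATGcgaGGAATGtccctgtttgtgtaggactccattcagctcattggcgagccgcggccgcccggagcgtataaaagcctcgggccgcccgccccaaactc
ANKRD1: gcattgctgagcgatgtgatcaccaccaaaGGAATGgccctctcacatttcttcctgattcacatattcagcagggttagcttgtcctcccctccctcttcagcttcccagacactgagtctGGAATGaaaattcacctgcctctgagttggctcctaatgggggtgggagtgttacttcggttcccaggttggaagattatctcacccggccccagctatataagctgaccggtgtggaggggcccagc
One copy was found in 1 promoter each of AMOTL2, AJUBA, AXL and YAP1, and none in the windows of LATS2 and WWTR1. A match in these letters is a description of the window and not a measured binding site.

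Because triptolide was part of the protocol, AU-rich letters in the 3′ untranslated regions (UTRs) are also given, since ATTTA repeats are known from many short-lived mRNAs. A block of transcription was not measured, and whether these letters bear on the changes below was not tested. Over the 12146 tested genes with an annotated 3′ UTR in GENCODE 29 (GRCh38, longest 3′ UTR per gene), 74.3% held at least 1 ATTTA, the median density was 1.73 per kb, and 9.57% held the nonamer TTATTTATT. The 3′ UTR of CCN1 held 5 ATTTA (5.43 per kb, above the density of 93.1% of these genes), and 0 nonamers. That of ANKRD1 held 4 (5.19 per kb, above 92.3%), and 2 nonamers. For CCN1 the shorter TATTTAT is shown in place of the nonamer. TATTTAT was searched in CCN1 alone and its share over all genes was not counted, so these sites are not comparable with the nonamers. The sites below are shown as the 27 bases around a nonamer (ANKRD1, LATS2) or around TATTTAT (CCN1), with those letters in capitals. They lie at chr10:90912669-90912695 and chr10:90912645-90912671 (minus strand, ANKRD1), chr13:20973091-20973117 (minus strand, LATS2), and chr1:85583561-85583587 and chr1:85583655-85583681 (plus strand, CCN1).
ANKRD1 site A: gtgaaactcTTATTTATTtttatgtat
ANKRD1 site B: tattcctgtTTATTTATTtactgccac
LATS2 site: gtttaactaTTATTTATTgatatatca
CCN1 site A: tgaatgtttTATTTATcaaaatgtagc
CCN1 site B: aaaagatttTATTTATggaattaacca
CCN2 held 3 ATTTA (2.76 per kb), AMOTL2 held 2 (1.09 per kb) and AXL held 0. The remaining genes lay between 2.34 per kb (TEAD1) and 3.97 per kb (AJUBA), with WWTR1 at 3.36 and LATS2 at 3.26 per kb.

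Library totals ranged from 7957691 to 11580219 counts, and the lowest count of any of the 10 genes in any library was 230 (LATS2). One library stood apart: DMSO at 0, replicate 2, had 1.42% of its counts on genes annotated as antisense, against 0.217 to 0.253% in the other 17. Etoposide at 20, replicate 2, had the fewest genes with a count (17854). Same-numbered libraries deviated together in every group, replicate 3 most of all, and this replicate also lacked counts of 2 upstream Hippo regulators: DLG5 was at 54.7 to 89.6 CPM (gene counts scaled to a common library total) in replicates 1 and 2 but at 0 to 0.105 CPM in replicate 3, and SCRIB at 35.3 to 56.5 CPM against 0.220 to 7.64 CPM. As a check of the cell type, 4 of 8 retinal pigment epithelium markers exceeded a mean of 5 CPM (BEST1, MITF, OTX2, SERPINF1), with BEST1 carried by 1 library at 2452 CPM, while RPE65, RLBP1 and TYR were below 1 CPM. KRT8 and KRT18 were abundant, EPCAM, CDH1, KRT5 and KRT14 were below 1 CPM, 4 of 7 fibroblast markers exceeded 5 CPM, and all 5 blood markers were below 1 CPM. Summed fibroblast markers overlapped between all groups (503 to 803 CPM over the 18 libraries). Summed pigment epithelium markers went from 101 to 2542 CPM at 0 to 69.8 to 90.1 CPM at 40 in DMSO, and from 93.2 to 103 CPM to 70.8 to 84.5 CPM with etoposide, so the sums at 40 lay below those at 0 in both arms. Of this list 6 of 8 were tested, and 5 of 6 unblocked values between 0 and 40 were below 0 in each arm (median −0.40 in DMSO and −0.14 with etoposide, beside 0.01 and 0.00 over all genes). OTX2, a transcription factor of pigment epithelium, was the 1 called gene of the list, in 3 blocked comparisons in which 1.22% (DMSO, 0 to 40), 1.01% (etoposide, 0 to 40) and 0.486% (etoposide, 20 to 40) of all genes were called. It stood at 34.6, 36.0 and 23.7 CPM at 0 and at 21.5, 17.1 and 17.1 CPM at 40 in DMSO, and fell by 0.74 on the log2 scale (SE 0.12, blocked edgeR fit, adjusted p = 0.00111). With etoposide it fell by 0.82 between 0 and 40 (SE 0.12, blocked edgeR fit, adjusted p = 3.82e-04) and by 0.58 between 20 and 40 (SE 0.12, adjusted p = 0.0326). Unblocked, 0 to 40 did not pass in either arm (adjusted p = 0.104 and 0.0825), while DESeq2 called OTX2 in both. Whether these markers have a part in the results was not tested.

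All 10 genes were expressed in serum-starved cells. In DMSO at 0, CCN1 (a secreted matricellular protein that binds integrins, also known as CYR61) averaged 259.7 ± 53.9 RPKM (CPM per kilobase of merged exons, SD, n = 3). CCN2 (its paralogue CTGF) averaged 226 ± 54.4 RPKM, AXL (the receptor tyrosine kinase for GAS6) 137 ± 36.3 RPKM, and ANKRD1 (an ankyrin-repeat protein of nucleus and sarcomere) 109 ± 59.1 RPKM. The lower part of the order ran from YAP1 (41.7 ± 13.7 RPKM) and WWTR1 (30.7 ± 2.50 RPKM) through AMOTL2 (26.2 ± 5.97), AJUBA (21.6 ± 3.95) and TEAD1 (19.99 ± 8.26) to LATS2 (5.54 ± 0.992). Neighbours in this order had overlapping ranges over the 3 libraries, except TEAD1 over LATS2. Within each library, however, the order held in all 3 for every neighbouring pair but YAP1 over WWTR1, WWTR1 over AMOTL2 and AJUBA over TEAD1, which held in 2 of 3. The order of WWTR1 and YAP1 also depended on the length used, with WWTR1 at 51.4 and YAP1 at 48.7 RPKM when only the longest transcript was counted.

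**Figure D1:**
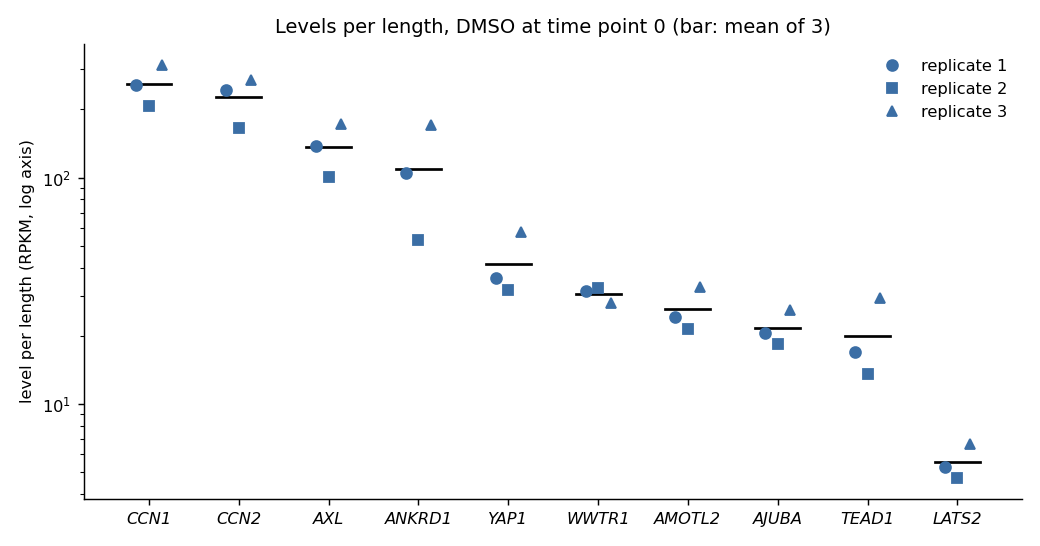
Level per length of the 10 genes in the 3 libraries of DMSO at time point 0 (vertical axis: RPKM, log scale; symbols: replicates; bar: mean of 3). CCN1 and CCN2 lie highest and LATS2 lies lowest, at 5.54 RPKM on average.

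For most of the 10 genes 1 replicate number held the same place in every group. Replicate 3 was the highest of the 3 in all 6 groups for CCN1, ANKRD1, AMOTL2, LATS2, AJUBA, AXL, YAP1 and TEAD1, and in 5 of 6 groups for CCN2. WWTR1 ran the other way and was lowest in replicate 3 in all 6 groups. The ratio of replicate 3 to replicate 2, averaged over the groups, was 2.35 for ANKRD1, 1.85 for TEAD1, 1.76 for CCN1 and 0.81 for WWTR1. For this reason each comparison is given both without a term for the replicate number and with the number as a block, which compares same-numbered libraries with each other.

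Among the secreted targets, CCN1 RNA fell between 0 and 40 in both arms when same-numbered libraries were compared. In DMSO it stood at 631, 508 and 773 CPM in replicates 1 to 3 at 0, at 444, 406 and 786 CPM at 20, and at 179, 141 and 348 CPM at 40. All 3 libraries at 40 were below all 3 at 0 and all 3 at 20, while 0 and 20 overlapped. Group means were 637 ± 132 CPM at 0 and 222.6 ± 110.1 CPM at 40 (SD, n = 3), and the 3 replicates kept 28.4%, 27.7% and 45.0% of their level at 0. The log2 change was −1.58 (SE 0.13, edgeR with the block, adjusted p = 3.95e-08). The unblocked fit gave −1.51 (SE 0.34, adjusted p = 0.0928), which did not pass.

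With etoposide, CCN1 stood at 506, 346 and 583 CPM at 0, at 460.4, 428 and 678 CPM at 20, and at 213, 207 and 322 CPM at 40. Again the libraries at 40 lay below every library of the earlier time points. The group mean was 478 ± 121 CPM at 0 and 247 ± 64.6 CPM at 40, and 42.0%, 60.0% and 55.2% of the level at 0 was kept. The log2 change was −0.92 (SE 0.12, edgeR with the block, adjusted p = 9.88e-05). In the unblocked fit it was −0.92 (SE 0.34, adjusted p = 1.0). Counted from 20 to 40, the etoposide replicates kept 46.2%, 48.5% and 47.5% (−1.06, SE 0.12, edgeR with the block, adjusted p = 3.82e-05). The DMSO replicates kept 40.3%, 34.7% and 44.3% over the same step (−1.31, SE 0.13, edgeR with the block, adjusted p = 1.18e-06). From 0 to 20 the values of CCN1 were −0.27 (SE 0.12) in DMSO and 0.14 (SE 0.12) with etoposide in the blocked fit, neither of which passed (edgeR adjusted p = 1.0 and 0.999).

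CCN2, the other matricellular target, fell in DMSO in the blocked fit only, and by less than CCN1. It stood at 571, 385 and 629 CPM at 0, at 475, 394 and 598.5 CPM at 20, and at 439, 287 and 405 CPM at 40. The groups at 0 and 40 overlapped, since replicate 2 was low throughout. Yet each replicate was lower at 40, as in 15.6% of all genes, at 76.8%, 74.7% and 64.4% of its level at 0. The log2 change was −0.47 (SE 0.09, edgeR with the block, adjusted p = 0.00718) and −0.48 (SE 0.21, adjusted p = 1.0) without it. With etoposide CCN2 stood at 467, 357 and 491 CPM at 0 and at 392, 314 and 414 CPM at 40, or 83.9%, 88.0% and 84.4% within replicates. That value, −0.20 (SE 0.09), did not pass (edgeR with the block, adjusted p = 0.774). The call of CCN2 in DMSO ended when any 1 of 4 libraries was left out of the blocked fit, namely replicates 1 and 3 at 0 and replicates 2 and 3 at 40 (adjusted p 0.0582 to 0.0912).

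ANKRD1 showed the widest spread between replicates. In DMSO it stood at 206, 105 and 338 CPM at 0, at 193, 115 and 302 CPM at 20, and at 140.5, 92.9 and 162 CPM at 40. Each replicate was lower at 40 than at 0, as in 15.6% of all genes, at 68.1%, 88.8% and 48.0%. The groups overlapped because replicate 2 was low at every time point. The gene fell in the blocked fit by 0.59 on the log2 scale (SE 0.14, edgeR adjusted p = 0.0288). In the unblocked fit the value was −0.71 (SE 0.48, adjusted p = 1.0). With etoposide the levels were 156, 97.2 and 271 CPM at 0 and 136, 74.6 and 183 CPM at 40, or 87.3%, 76.7% and 67.3% within replicates. This value, −0.36 (SE 0.14), did not pass (edgeR with the block, adjusted p = 0.496). The DMSO call of ANKRD1 ended without replicate 1 or 3 at either 0 or 40 in the blocked fit (adjusted p 0.0717 to 0.292), and also when the blocked fit was scaled to ribosomal protein genes (adjusted p = 0.113).

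**Figure D2:**
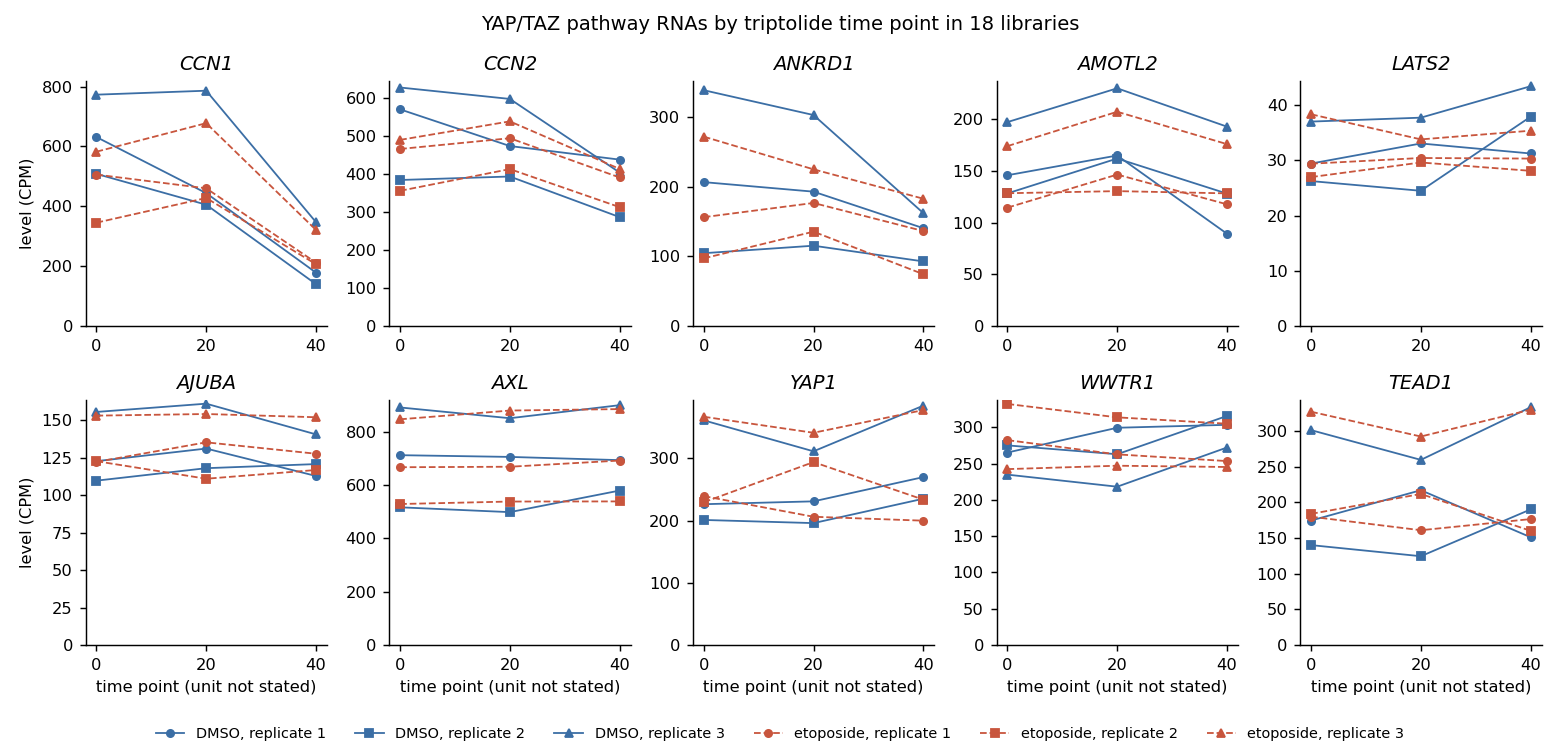
Level in CPM of the 10 genes (1 panel each, vertical axis from 0) at time points 0, 20 and 40 (unit not stated). Each line joins same-numbered libraries, solid for DMSO and dashed for etoposide. All 6 CCN1 lines are lower at 40 than at 0, while replicate 3 runs above the others in most panels.

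AMOTL2, LATS2 and AJUBA feed back on the pathway. AMOTL2, an angiomotin-family junction protein that holds YAP in the cytoplasm, stood at 146, 128 and 197 CPM in DMSO at 0, at 165, 162 and 229.6 CPM at 20, and at 89.4, 128 and 193 CPM at 40. The low value at 40 was in replicate 1 alone, which kept 61.3% against 99.9% and 97.8% in the other replicates. From 20 to 40 AMOTL2 was lower in all 3 DMSO replicates, as were 16.0% of all genes. Its log2 value of −0.46 (SE 0.11) did not pass (edgeR with the block, adjusted p = 0.0596). With etoposide it stood at 114, 128 and 174 CPM at 0 and at 118, 128 and 176 CPM at 40, which is 102.8%, 99.9% and 101.1% within replicates.

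LATS2, the kinase that phosphorylates YAP and TAZ, stood at 29.4, 26.3 and 37.0 CPM in DMSO at 0 and at 31.3, 37.9 and 43.4 CPM at 40. It was higher at 40 in all 3 pairs, as were 11.5% of all genes. The groups overlapped and the LATS2 value of 0.30 (SE 0.12) did not pass (edgeR with the block, adjusted p = 0.431). With etoposide the levels were 29.4, 26.99 and 38.3 CPM at 0 and 30.3, 28.1 and 35.4 CPM at 40. AJUBA, a LIM-domain protein that restrains LATS, lay between 109.7 and 161 CPM over all 18 libraries. Its log2 values between 40 and 0 were −0.03 (95% interval −0.22 to 0.15) in DMSO and 0.03 (−0.16 to 0.21) with etoposide in the blocked fit.

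AXL had values near 0 in both arms. It lay between 498 and 899 CPM, with replicate 2 lowest and replicate 3 highest in all 6 groups, and its level at 40 was 97.4%, 112% and 101% of that at 0 in DMSO and 104%, 102% and 104% with etoposide. The blocked log2 values between 40 and 0 were 0.06 (95% interval −0.10 to 0.21) and 0.08 (−0.07 to 0.23). GAS6, the ligand of AXL, was itself abundant at 537 to 1125 CPM.

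The coactivators and their DNA-binding partner did not pass the test in any comparison. YAP1 lay between 196 and 384 CPM and WWTR1 between 218 and 332 CPM. In DMSO WWTR1 stood at 265, 275 and 235 CPM at 0 and at 303, 316 and 272 CPM at 40, which is 114%, 115% and 116% within replicates. WWTR1 and YAP1 were each higher at 40 in all 3 DMSO pairs, as were 11.5% of all genes. The WWTR1 value of 0.21 (SE 0.09) did not pass (edgeR with the block, adjusted p = 0.511), and with etoposide its shares were 89.8%, 91.8% and 101%. YAP1 at 40 was at 119%, 117% and 106% of its level at 0 in DMSO (0.20, SE 0.12, edgeR with the block, adjusted p = 0.741) and at 83.5%, 102% and 103% with etoposide. TEAD1 lay between 125 and 334 CPM and separated by replicate, with replicate 3 at 259.8 CPM or more in every group against 217 CPM or less in replicates 1 and 2. Its blocked log2 values between 40 and 0 were 0.14 (SE 0.15) in DMSO and −0.04 (SE 0.15) with etoposide.

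**Figure D3:**
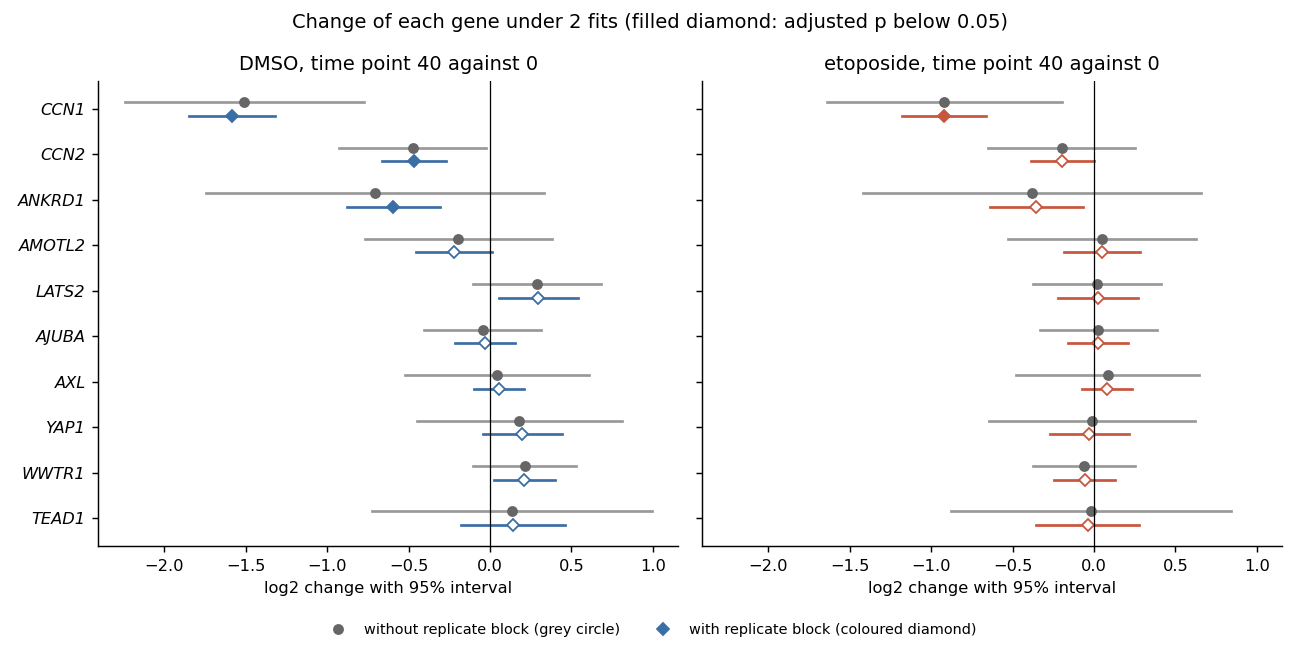
Log2 change of each gene from time point 0 to 40 with its 95% interval, in DMSO (left) and with etoposide (right), from the fit without the block (grey circles) and with the block (diamonds, filled where the adjusted p is below 0.05). CCN1 is filled in both panels, CCN2 and ANKRD1 in DMSO, and the blocked intervals are narrower.

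Between 0 and 40 in DMSO, 3 of the 10 genes were called in the blocked fit, all lower, against 1.22% of all tested genes (1.21% lower and 0.0141% higher). At an unadjusted p below 0.05 there were 5 of 10 in that fit, against 8.02% of all genes. Without the block 0 of 10 were called with edgeR, against 0.423% of all genes. There, 2 of 10 had an unadjusted p below 0.05, against 4.06% of all genes. DESeq2 called CCN1 alone, against 108 of all genes, and limma-voom called 0 of 10, against 51. Between 0 and 40 with etoposide, the blocked fit called CCN1 alone, against 1.01% of all genes. The fit without the block called 0 of 10 against 0.204%. DESeq2 and limma-voom called 0 of 10, against 68 and 31 of all genes. An unadjusted p below 0.05 was reached by 3 of 10 with the block, against 6.43% of all genes, and by 1 of 10 without it, against 3.04%. For the step from 20 to 40 the blocked fit called CCN1 alone in each arm, against 0.775% of genes in DMSO and 0.486% with etoposide. Without the block 0 of 10 were called in either arm, against 0.219% and 0.0493%. DESeq2 called CCN1 in DMSO and 0 with etoposide, against 60 and 27 of all genes. By limma-voom 0 of 10 were called in both arms, against 29 and 6 of all genes. In DMSO an unadjusted p below 0.05 was reached by 7 of 10 with the block (7.67% of all genes) and 1 of 10 without it (2.64%). With etoposide it was reached by 3 of 10 (4.94%) and 1 of 10 (2.14%).

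From 0 to 20, 0 of 10 genes were called in either arm in either fit, as were 0% of all genes (edgeR, and 0 of 10 by DESeq2 or limma-voom). In the blocked fit 2 of 10 had an unadjusted p below 0.05 in DMSO (2.76% of all genes) and 0 of 10 with etoposide (2.73%). Without the block it was 0 of 10 in both arms (1.4% and 1% of all genes). CCN1 was also the 1 gene of the 10 whose libraries at 40 did not overlap those at 0, in DMSO (4.63% of all genes were lower without overlap) and with etoposide (5.85%). Between 20 and 40 it was again the 1 gene without overlap (4.81% and 3.62% of all genes). The median log2 value of the 10 genes was 0.01 in DMSO and −0.03 with etoposide between 0 and 40 in the blocked fit, beside 0.01 and 0.00 over all tested genes.

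The CCN1 call in the blocked fits held with each library left out in turn, with values of −1.46 to −1.77 between 0 and 40 in DMSO and −0.79 to −1.01 with etoposide. With replicate 3 left out of all groups, CCN1 passed with and without the block, and CCN2 and ANKRD1 passed in neither (with the block, adjusted p = 0.615 and 0.81 in DMSO). Without the 2 libraries named above, the blocked fit still called CCN1, CCN2 and ANKRD1 between 0 and 40 in DMSO, at −1.55, −0.53 and −0.70. Levels are shares of each library's counts, so a lower level of 1 RNA and a rise of other RNAs cannot be told apart. Nor can less RNA per cell and a smaller part of the cells holding it, and an absolute loss of RNA was not measured.

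Etoposide against DMSO was compared at each time point. At 0, CCN1 in the etoposide libraries was at 80.2%, 68.0% and 75.4% of the same-numbered DMSO libraries. CCN2 was at 81.7%, 92.6% and 78.1%, and ANKRD1 at 75.7%, 93.0% and 80.3%. These 3 targets were lower in all 3 pairs, as were 14.8% of all tested genes, while YAP1, WWTR1 and TEAD1 were higher in all 3 pairs, as were 19.9% of all genes. The arms overlapped for each gene, and none of the 10 passed: 0 of 10 were called with or without the block, as were 0% of all genes (edgeR, and 0 of 10 by DESeq2 or limma-voom). An unadjusted p below 0.05 was reached by 3 of 10 in the blocked fit (6.22% of all genes) and 0 of 10 without the block (2.66%).

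The blocked values at 0 were −0.45 for CCN1 (95% interval −0.70 to −0.19), −0.28 for CCN2 (−0.47 to −0.09) and −0.31 for ANKRD1 (−0.59 to −0.02), with adjusted p of 0.755, 0.755 and 0.796. Without replicate 2 of DMSO at 0, the blocked values were −0.42 for CCN1, −0.35 for CCN2 and −0.44 for ANKRD1. In the unblocked fit, leaving out that library took CCN2 from −0.30 to −0.48 and ANKRD1 from −0.34 to −0.67, in a design where replicate 2 was the lowest for both genes in all 6 groups. Scaling to ribosomal protein genes moved the median of all genes by 0.13 in this comparison and gave unblocked values of −0.30 for CCN1, −0.17 for CCN2 and −0.19 for ANKRD1, against −0.44, −0.30 and −0.34.

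At 20 the blocked values of the 10 genes ran from −0.22 (AMOTL2, 95% interval −0.45 to 0.02) to 0.19 (YAP1, −0.05 to 0.43). CCN1 in etoposide libraries was at 104%, 106% and 86.2% of DMSO there, and AMOTL2 was the 1 gene lower in all 3 pairs (88.8%, 80.6% and 90.1%), as were 7.7% of all genes. Replicate 2 stood apart at this time point, with YAP1 at 150.0% and TEAD1 at 170.1% of DMSO, against 89.3% and 110% for YAP1 and 74.2% and 113% for TEAD1 in the other replicates. At 40 CCN1 was at 119%, 147% and 92.5% of DMSO, and the blocked value of 0.21 had a 95% interval of −0.05 to 0.47. LATS2, AXL, YAP1 and WWTR1 were lower in all 3 pairs at 40, as were 11.9% of all genes, with LATS2 at 97.0%, 74.2% and 81.5% of DMSO. None of the 10 genes was called at 20 or at 40 in either fit, against 0% of all genes at 20 and 0.00705% at 40 in the blocked fit and 0% without the block at both (edgeR, and 0 of 10 by DESeq2 or limma-voom). In the blocked fit 0 of 10 at 20 (2.5% of all genes) and 1 of 10 at 40 (3.51%) had an unadjusted p below 0.05, and without the block 0 of 10 at both (0.761% and 0.98%).

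**Figure D4:**
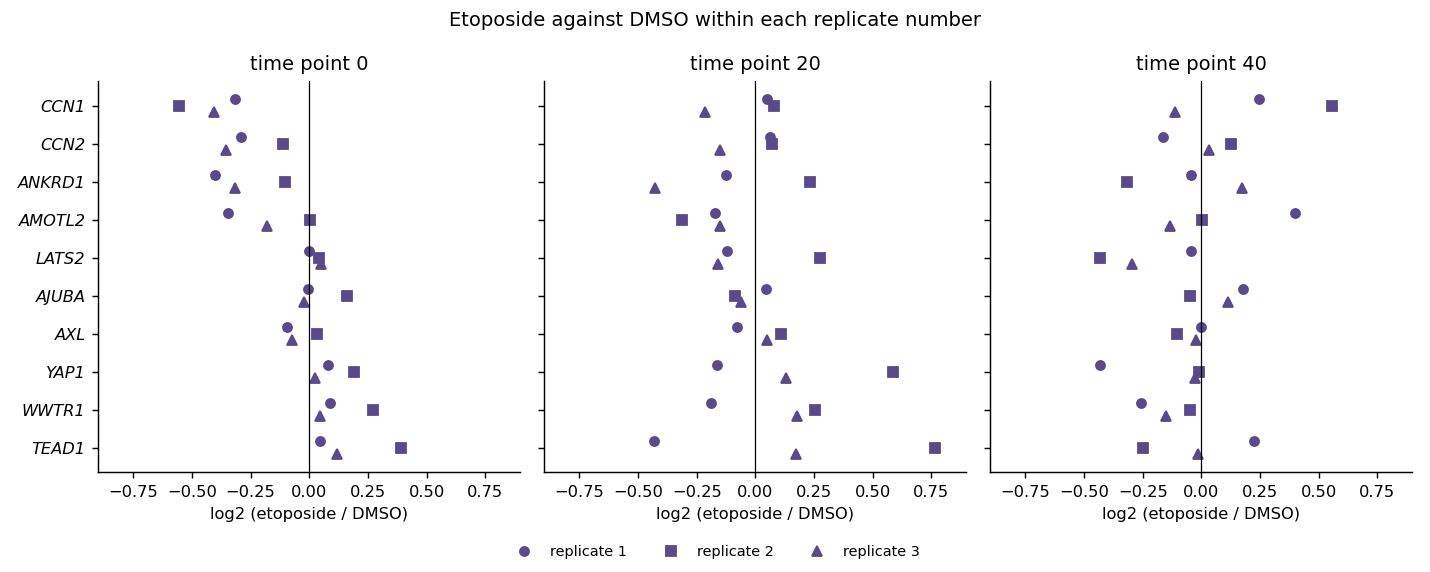
Log2 ratio of etoposide to DMSO within each replicate number, for the 10 genes at time points 0, 20 and 40 (1 panel each; symbols: replicates). At 0 all 3 symbols of CCN1, CCN2 and ANKRD1 lie below 0, and at 20 and 40 the symbols of CCN1 lie on both sides of 0.

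Whether a change differed between the arms was tested as an interaction, the etoposide change minus the DMSO change. For CCN1 from 0 to 40 it was 0.66 (SE 0.17, 95% interval 0.30 to 1.02) with the block and 0.59 (SE 0.48, −0.42 to 1.61) without it. Neither passed over all genes (edgeR adjusted p = 0.991 and 1.0). The share of CCN1 kept was larger with etoposide in each of the 3 replicates, and how many of all genes did the same was not counted. The CCN1 means were 637 CPM (DMSO) and 478 CPM (etoposide) at 0, and 222.6 and 247 CPM at 40. The interactions of CCN2 and ANKRD1 from 0 to 40 were 0.27 (−0.0031 to 0.55) and 0.24 (−0.17 to 0.64) with the block. For LATS2 it was −0.27 (−0.62 to 0.07), and for WWTR1 −0.27 (−0.53 to −0.0025). Neither interaction, from 0 to 20 or from 0 to 40, was called for any of the 10 genes or for any other gene (0% in both fits with edgeR, and 0 of 10 by DESeq2 or limma-voom). In the blocked fit 2 of 10 from 0 to 40 (3.42% of all genes) and 1 of 10 from 0 to 20 (2.36%) had an unadjusted p below 0.05, and without the block 0 of 10 (1.34% and 0.98%).

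Of 16 further YAP/TAZ targets, 1 fell between 0 and 40 in DMSO without the block and 2 with it, against 0.423% and 1.22% of all tested genes called. NUAK2, an AMPK-related kinase, stood at 4.58, 7.88 and 4.84 CPM at 0 and at 1.31, 1.58 and 1.26 CPM at 40, with no overlap (4.63% of all genes were lower without overlap). For NUAK2 edgeR gave a log2 change of −2.04 (SE 0.30, adjusted p = 0.00327), and of −2.03 in the blocked fit (adjusted p = 2.0e-04). With etoposide NUAK2 stood at 6.32, 9.80 and 5.27 CPM at 0 and at 2.91, 3.01 and 2.09 CPM at 40, and it fell by 1.36 on the log2 scale in the blocked fit (SE 0.26, edgeR adjusted p = 0.00614). Without the block the value was −1.38 (adjusted p = 0.0778). GADD45A, a stress and cell-cycle gene that p53 also induces, went from 67.4, 67.8 and 67.2 CPM to 46.8, 50.9 and 45.6 CPM in DMSO (−0.49, SE 0.12, blocked edgeR fit, adjusted p = 0.0429, against 0.293 unblocked). The list as a whole was balanced, with 8 values below and 8 above 0 in DMSO (median 0.03) and 7 below and 9 above with etoposide (median 0.01), beside medians of 0.01 and 0.00 over all genes. NT5E, the ecto-enzyme CD73, had a value of 0.16 (SE 0.17) and was not called. At 40 NUAK2 was higher in etoposide than in DMSO in all 3 replicates (0.94, SE 0.31), as were 13.3% of all genes. The NUAK2 difference did not pass (edgeR adjusted p = 1.0, and 0.996 with the block).

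The kinases and upstream regulators of the pathway had no called gene. Of the 24 listed, 23 were tested (CRB3 was not), and 0 were called between 0 and 40 in either arm in either fit, with 0 at an unadjusted p below 0.05 and 0 by DESeq2 or limma-voom. Over all genes, 1.22% (DMSO) and 1.01% (etoposide) were called with the block, and 0.423% and 0.204% without it. An unadjusted p below 0.05 was reached by 8.02% and 6.43% with the block, and by 4.06% and 3.04% without it. At such shares, 0 calls among 23 genes is not particular to this list. NF2, the membrane-linked scaffold merlin, had −0.18 (SE 0.18) in DMSO, and STK3, which encodes MST2, had −0.17 (SE 0.18). WWC1, the scaffold KIBRA, had 0.18 (SE 0.16) in DMSO and 0.12 (SE 0.16) with etoposide. For the other TEAD factors and VGLL cofactors, 5 of 7 were tested and 0 called in either arm (0 by DESeq2 or limma-voom, with 2 of 5 at an unadjusted p below 0.05 in the blocked DMSO fit, against 8.02% of all genes). TEAD4 had the lowest value among them in DMSO, −0.31 (SE 0.22), going from 23.0, 23.3 and 33.8 CPM to 17.4, 20.2 and 26.8 CPM. It was lower in all 3 pairs, as were 15.6% of all genes, with overlapping groups. VGLL3 repeated the replicate pattern of TEAD1 more strongly, at 27.1, 15.6 and 113 CPM in DMSO at 0.

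Genes of the SRF and MRTF pathway, which shares serum and actin inputs with YAP and TAZ, were also without a call. All 16 were tested, and 0 passed between 0 and 40 in either arm in either fit (0 at an unadjusted p below 0.05, 0 by DESeq2 or limma-voom). Over all genes, 1.22% (DMSO) and 1.01% (etoposide) were called with the block, and 0.423% and 0.204% without it. An unadjusted p below 0.05 was reached by 8.02% and 6.43% with the block, and by 4.06% and 3.04% without it. Of the 16 values in DMSO, 11 were below 0 and 5 above (median −0.05), with SRF itself at −0.19 (SE 0.13). With etoposide 3 were below and 13 above (median 0.04), with TAGLN, the actin-binding transgelin, at 0.20 (SE 0.36). Among the paralogues of CCN1 and CCN2, CCN3 was steady at 98.5 to 127 CPM in all libraries (0.01, SE 0.12 in DMSO), CCN5 was low (1.77, 1.14 and 2.0 CPM in DMSO at 0), and neither was called (0 at an unadjusted p below 0.05, 0 by DESeq2 or limma-voom). The ligands and sister receptors of AXL had 0 of 4 called in either arm (0 by DESeq2 or limma-voom, 1 of 4 at an unadjusted p below 0.05 in the blocked etoposide fit, against 6.43% of all genes), with GAS6 at −0.06 (SE 0.27) in DMSO and 0.23 (SE 0.27) with etoposide.

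The genes most like CCN1, CCN2 and ANKRD1 over the groups were found by the root-mean-square difference of their group-mean log2 level relative to DMSO at 0, over the other 5 groups, among 10810 genes with a mean of at least 5 CPM. Nearest to CCN1 were GADD45B (0.144), JUN (0.146) and KLF6 (0.16). In DMSO at 40 these stood at −1.74, −1.61 and −1.36, where CCN1 stood at −1.60, and in etoposide at 40 at −1.51, −1.34 and −1.39, where CCN1 stood at −1.37. Nearest to CCN2 were PTX3 (0.0436), NXT1 (0.0558) and RND3 (0.0583), and nearest to ANKRD1 were DKK1 (0.08), FEM1A (0.0973) and ZNF691 (0.0985). Likeness is over 5 values that share the same baseline libraries and describes these groups only.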

How the data were processed

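The files hold raw whole-number counts of reads per gene as deposited, not normalised. The submitters' processing notes name bcl2fastq, HISAT2, featureCounts and the build GRCh38 (hg38). Versions, annotation and strand setting of the counting were not given in the sources used here, although the labels name a stranded mRNA kit, so reads of a gene and of an antisense partner may not be separable. Overlapping genes held at most 170 counts over all libraries beside any member. Of 58051 identifiers, 57447 matched GENCODE 29.

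Counts were tested with edgeR 4.0.16 (quasi-likelihood, robust, R 4.3.3) in 1 model of 6 groups, with TMM factors of 0.978 to 1.02 and the default filter (14186 genes, 99.84% of counts). Benjamini-Hochberg adjustment covered every tested gene, with calls below 0.05. Intervals are 95%. The edgeR step was tested on simulated data, but no result of that test is given here, with or without the replicate block. With all libraries kept, every edgeR call among the members came from fits with the block. No support for those calls is therefore drawn from the simulation. CPM and RPKM were computed from the counts and library totals.

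The fit with the replicate number as a block is given beside the main one, because deviations from group means correlated at 0.359 to 0.911 in all 45 same-numbered pairs of libraries of different groups. Different numbers gave −0.785 to 0.63, and numbers 1 and 2 alone 0.392 to 0.63 in 30 pairs, so the deviations mainly set replicate 3 apart from 1 and 2. Only the number in the sample titles pairs them.

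Alternatives were DESeq2 1.42.0, limma-voom (limma 3.58.1), other scaling and filters, each library left out and replicate 3 left out. Ribosomal scaling, leaving out the 2 unusual libraries and further blocked fits were chosen after seeing the data. The 10 members and all lists were chosen with earlier results of these data known. Named outside the members were called genes, those with the smallest p of each list and direction, and the 3 nearest in pattern. The labels call the replicates independent without naming cultures, so p-values measure the spread between these samples, which may be technical. In the blocked fit they measure only the spread left after the replicate number is taken out.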

Additional observations from a re-analysis of the deposited data

Results flagged for a closer look

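AXL drew attention because its change from 0 to 20 had opposite signs in the arms in every same-numbered pair. In DMSO the replicates were at 99.1%, 96.5% and 95.5% of their level at 0, and the mean at 20 was 684.2 CPM, against 100.3%, 101.8% and 103.9% with etoposide. The interaction was 0.10 (SE 0.38, edgeR adjusted p = 1.0) and 0.09 (SE 0.10) with the replicate block, so the difference did not pass a test in either fit (adjusted p = 1.0 in both). Within pairs the percentages had an SD of 1.86 in DMSO and 1.81 with etoposide. Over all genes, 11.6% were lower in every same-numbered pair from 0 to 20 in DMSO. With etoposide 7.99% were higher in every pair, and the share of genes with both was not counted.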

How the results depend on the processing

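Without the replicate block 0 of 10 genes were called in all 11 comparisons. The replicate block gave 3 from 0 to 40 in DMSO and 1 each from 20 to 40 in DMSO, from 0 to 40 with etoposide and from 20 to 40 with etoposide. Without replicate 3, with or without the block, 1 was called in each of these 4, namely CCN1 (78 of all genes from 0 to 40 in DMSO without the block). Totals over all genes for the other fits without replicate 3 are not given here, and no reading is drawn from their counts. DESeq2 called 1 in each of the 2 DMSO comparisons (108 of all genes from 0 to 40 and 60 from 20 to 40). Leaving out 1 library at a time gave 0 to 1 without the block from 0 to 40 in DMSO, the 1 being CCN1 without replicate 3 of DMSO at 40 (−1.98, adjusted p = 0.0177), and 0 elsewhere. Over all genes, 27 to 86 were called from 0 to 40 in DMSO in these fits. With the block, leaving out 1 library gave 1 to 3 from 0 to 40 in DMSO (119 to 194 of all genes) and 1 to 2 from 20 to 40 in DMSO (64 to 112). With etoposide it gave 1 from 0 to 40 (87 to 110 of all genes) and 1 from 20 to 40 (37 to 77). With the block and without both unusual libraries, 3 were called from 0 to 40 and 4 from 20 to 40 in DMSO (CCN1, CCN2, ANKRD1 and AMOTL2), and 1 in each etoposide comparison. The block with ribosomal scaling gave 2 from 0 to 40 in DMSO (CCN1 and CCN2) and 1 in each of the other 3. For these last 2 settings the totals over all genes are not given here, so the counts cannot be set against them. The remaining comparisons stayed at 0 under each alternative run. The number of genes called from 0 to 40 in DMSO was 60, or 173 with the block, 108 with DESeq2 and 12 when only the compared groups were fitted. No called value changed sign. Of the 110 log2 values of the unblocked fit, 25 had another sign without both unusual libraries and 18 with ribosomal scaling. None of the 110 was called in any of these unblocked fits, so these sign changes do not bear on called values. The spread between replicates set the precision: the SE of ANKRD1 from 0 to 40 in DMSO was 0.48 without the block and 0.14 with it.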
